A study of Mus musculus with 175 samples.

Results

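The genes described here were the mouse CD antigen genes that could be read in single myeloid progenitors of the fetal liver. A gene entered the set when the deposited annotation called it protein coding, when its symbol was Cd followed by a number (with at most a letter and a further digit), and when at least 1 raw read was present in 10% or more of the cells of any of 4 sorted populations. Cd34, Cd48 and Cd93 were left out by the rule. Of 84 symbols of this form, 39 met the detection rule, 11 were read in too few cells and 34 had 0 reads in all cells. The same detection rule was met by 10693 protein coding genes in all. The genes were thus selected on their reads in these same cells, and their presence is a description and not a finding.

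Single progenitors had been sorted from pooled livers of 2 litters at embryonic day 14.5 and sequenced one cell to a well by a modified Smart-Seq2 protocol, a full-length method without molecular identifiers. All 4 populations carried the same reporter allele, given as Runx1 P1-GFP::P2-hCD4/+ in the extraction text and as Runx1 P2-GFP::P2-hCD4/+ in the genotype field, on C57BL/6 crossed with ICR. In this allele human CD4 is made under the proximal promoter (P2) of Runx1, which encodes a transcription factor of blood development, and the staining of human CD4 separated P2- from P2+ cells. Megakaryocyte-erythroid progenitors (MEPs) and common myeloid progenitors (CMPs) were, per the study, lineage-negative SCA1- KIT+ CD16/32 low cells that lacked CD41 and carried CD150, with CD34 absent on MEPs and present on CMPs. After the cell filters the MEPs comprised 56 P2- and 47 P2+ cells and the CMPs 27 P2- and 42 P2+ cells. Numbers of cells with a read are of raw reads unless thinning is named. Where values are said to run from P2- MEPs to P2+ CMPs, they follow this order. Because each population was 1 sorted pool of the same livers, it counted as 1 sample, and differences between populations were given as sizes with no test. Intervals are exact 95% intervals that cover counting error only, since amplified reads are not independent molecules.

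CD numbers are given to surface molecules of leukocytes that groups of antibodies recognise, so the name joins proteins of unrelated families. Tetraspanins span the membrane several times and gather integrins and other receptors into membrane domains. GPI-anchored proteins such as CD55 and CD59 shield cells from complement, and inhibitory immunoglobulin-like receptors such as the CD200 receptor restrain myeloid cells. Receptors of the TNF family such as CD27 signal on lymphocytes and early progenitors. Many of these proteins are used in flow cytometry to divide blood progenitors.

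Pooled reads on mouse genes came to between 18334696 and 36351033 a population, and 0 reads in a population allowed a level of up to 0.0825 to 0.164 CPM, taken as 3 reads of its total, where CPM is a gene's reads per 1000000 reads on mouse genes. The 4 populations carried reads of all 5 markers of hematopoietic progenitors. The 6 erythroid markers summed to 1110, 745, 207.7 and 27.8 CPM from P2- MEPs to P2+ CMPs. The 6 granulocyte and monocyte markers summed to 9.80, 38.6, 285.9 and 525 CPM in the same order of populations, and the 6 megakaryocytic markers to 49.1, 486, 475 and 599 CPM. Of 8 macrophage markers, Adgre1, C1qa, C1qb, C1qc and Timd4 were at 0 reads in every population, and the 8 summed to at most 1.49 CPM. Of the lymphoid markers, Cd3e, Rag1, Il7r and Pax5 were at 0 reads in all populations, while Cd79a was read in 1 P2- CMP with 59 reads. Hepatocyte markers summed to between 10.3 and 24.7 CPM. The 6 mast cell and basophil markers summed to 0.327, 2.69, 72.8 and 34.2 CPM from P2- MEPs to P2+ CMPs. Of these, Fcer1a, Ms4a2, Gzmb and Prss34 were at 0 reads in every population, and Mcpt8 was read in P2- CMPs alone. The sums of the other populations were thus reads of Cpa3 only. The 5 endothelial markers summed to 86.4, 86.3, 201 and 242.6 CPM in the same order. Of the endothelial sums, Egfl7 alone took 86.3, 84.8, 199 and 238.8 CPM. The part of these differences in the values of single CD genes was not tested.

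The detection rule was passed in all 4 populations by 18 of the 39 genes. It was passed in 3 populations by 6 genes, in 2 by 6 and in 1 by 9. By population, the numbers that passed were 20 and 25 for P2- and P2+ MEPs and 30 and 36 for P2- and P2+ CMPs. Of the 10693 genes that met the rule, 87.2% and 88.1% passed in P2- and P2+ MEPs and 93.1% and 93.3% in P2- and P2+ CMPs. Through CMPs alone 12 of the 39 CD genes had passed, and 8.24% of all genes that met the rule. Through MEPs alone 3 of the 39 had passed, and 2.54% of all. The genes that passed in P2+ CMPs alone were Cd33, Cd244, Cd180, Cd200, Cd4 and Cd300a, those in P2- MEPs alone were Cd248 and Cd302, and Cd38 passed in P2+ MEPs alone. A gene that entered through a single population had to differ in how many of its cells were read. Just inside the threshold were Cd38, read in 10.6% of P2+ MEPs, and Cd33 and Cd244, each read in 11.9% of P2+ CMPs. Just outside it were Cd74 with reads in 9.52% of P2+ CMPs, Cd200r3 with reads in 7.41% of P2- CMPs, and Cd79a, Cd160 and Cd3d with reads in 3.70% of P2- CMPs, which is a single cell for each.

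**Figure D1:**
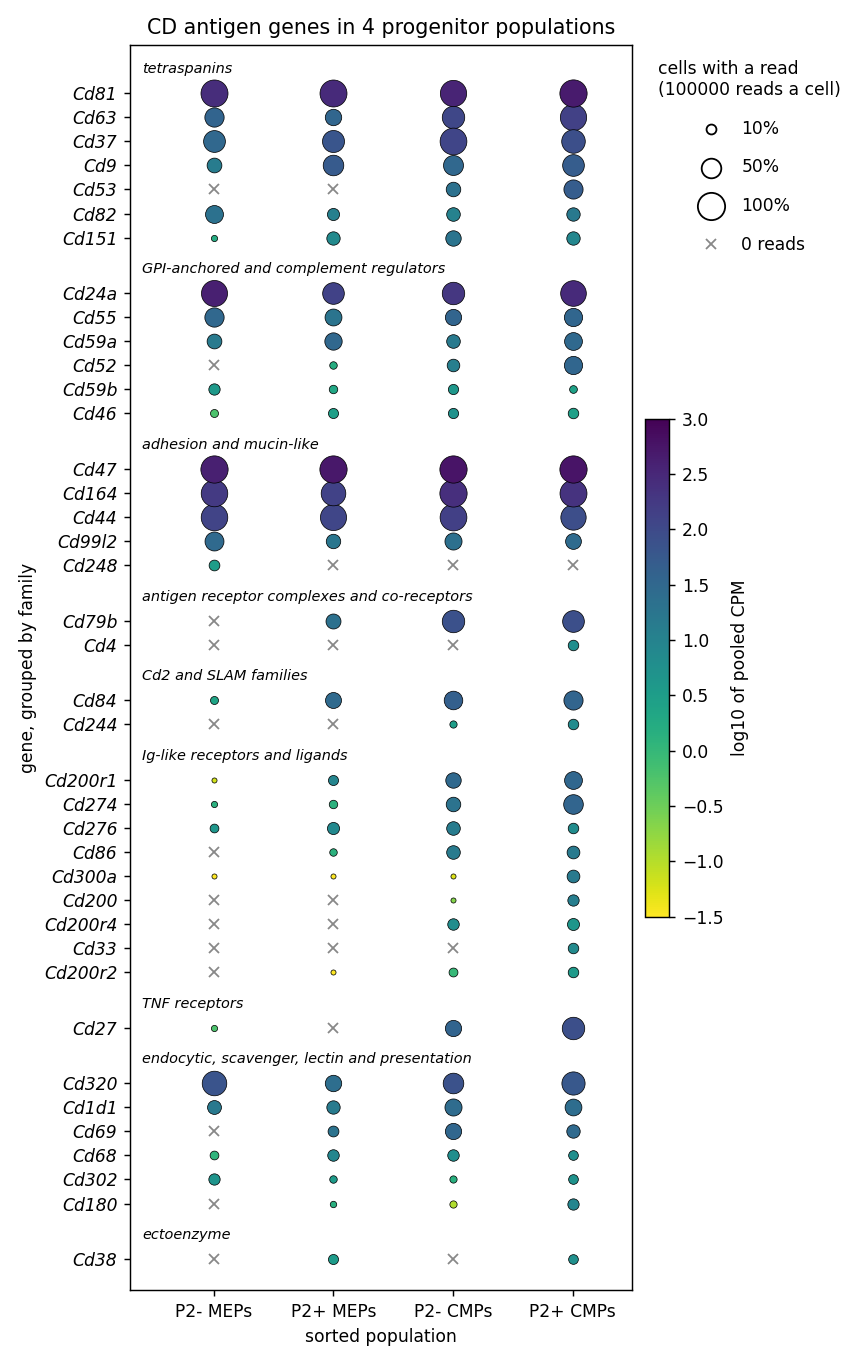
Pooled level (color, log10 of CPM) of each of the 39 CD genes in the 4 sorted populations, with the area of a circle giving the percent of cells with a read after thinning to 100000 reads a cell and a cross marking 0 reads. Crosses are most frequent in P2- MEPs, where 13 genes had 0 reads, and P2+ CMPs have a single one.

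The number of CD genes read per cell was counted next. After each cell was thinned to 100000 reads, P2- MEPs held a read of between 7 and 13 of the 39 genes with a median of 10. In P2+ MEPs the range was 6 to 14 with a median of 10, in P2- CMPs 9 to 21 with a median of 12, and in P2+ CMPs 7 to 22 with a median of 15.5. The populations overlapped, and the upper ends of the 2 CMP populations lay beyond the richest MEP. The number of all mouse genes read per thinned cell had medians of 5963.5, 5488, 5724 and 5884.5 in the same order, but all genes were not selected on their reads. Since more of the CD genes had entered through CMPs than through MEPs, a higher number in CMPs is partly set by the rule. Over the 18 genes that passed in all 4 populations, the medians were 9 and 8 in P2- and P2+ MEPs and 10 in both CMP populations, with ranges that overlapped between 6 and 12. The 39 genes together took 0.167% and 0.158% of pooled mouse reads in P2- and P2+ MEPs and 0.229% and 0.263% in P2- and P2+ CMPs. The highest pooled level of a gene lay in P2+ CMPs for 19 genes, in P2- CMPs for 13, in P2- MEPs for 4 and in P2+ MEPs for 3. Over all genes that met the rule these shares were 28.3%, 26.5%, 25.6% and 19.6%, and the 12 CD genes that had passed in CMPs alone had to be read in more cells there.

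**Figure D2:**
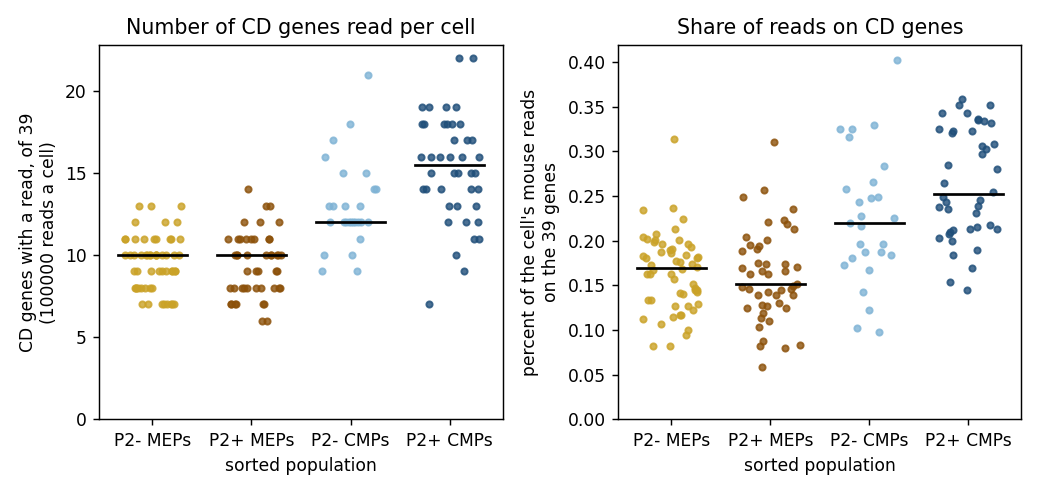
Number of the 39 CD genes with a read in each cell at 100000 reads (left) and percent of the cell's mouse reads on them (right), by sorted population. Points are single cells and bars are medians, at 10, 10, 12 and 15.5 genes on the left from P2- MEPs to P2+ CMPs.

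Levels of different genes were set side by side per kilobase of exon. Cd24a, a short GPI-anchored sialoglycoprotein of immature blood cells, was first in P2- MEPs with 157 CPM per kilobase. Cd81, a tetraspanin partner of integrins, was first in the other populations, with 101 CPM per kilobase in P2+ MEPs and with 123 and 165 CPM per kilobase in P2- and P2+ CMPs. Cd47, which binds SIRPA and restrains phagocytosis, and Cd164, a sialomucin of progenitors, were among the 5 highest everywhere, at 65.0 to 92.8 and 29.3 to 54.7 CPM per kilobase. Cd320 in P2- MEPs and Cd9 in P2+ MEPs completed the 5 highest. In CMPs the remaining gene among the 5 highest was Cd79b, with 53.4 CPM per kilobase in P2- and 59.0 in P2+ cells. It had 0 reads in P2- MEPs.

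A gene was counted as higher or lower between populations at a ratio of pooled CPM of at least 2. The question behind the comparison of P2+ with P2- cells was which surface antigens go with activity of the Runx1 P2 promoter. With that fold, 14 CD genes were higher and 4 lower in P2+ than in P2- MEPs, of 31 with enough reads for a ratio. Over all protein coding genes that met the detection rule, 14.2% were higher and 6.44% lower by the same fold, and the median log2 ratio was 0.05 over these genes and 0.35 over the CD genes. In CMPs, 13 CD genes were higher and 1 lower in P2+ than in P2- cells, of 38, against 9.00% higher and 8.65% lower over all genes, with a median log2 ratio of 0.31 for the CD genes and -0.02 for all. The rule asks for reads in 10% of the cells of a single population, and a gene that passed through the population where it was high had to differ. The shares are therefore a description only. Without the cell of highest level for each gene, the number lower in P2+ MEPs was 8. Among the 18 genes that passed in all 4 populations, 5 were higher (Cd68, Cd9, Cd37, Cd59a and Cd84) and 2 lower (Cd320 and Cd24a) in P2+ MEPs, where 7.92% and 2.86% of the genes passing everywhere were higher and lower. In CMPs, 1 of these 18 was higher (Cd59a) and 0 were lower, against 4.10% and 5.14% of all genes passing everywhere. Median log2 ratios of the 18 were -0.11 in MEPs and -0.05 in CMPs.

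**Figure D3:**
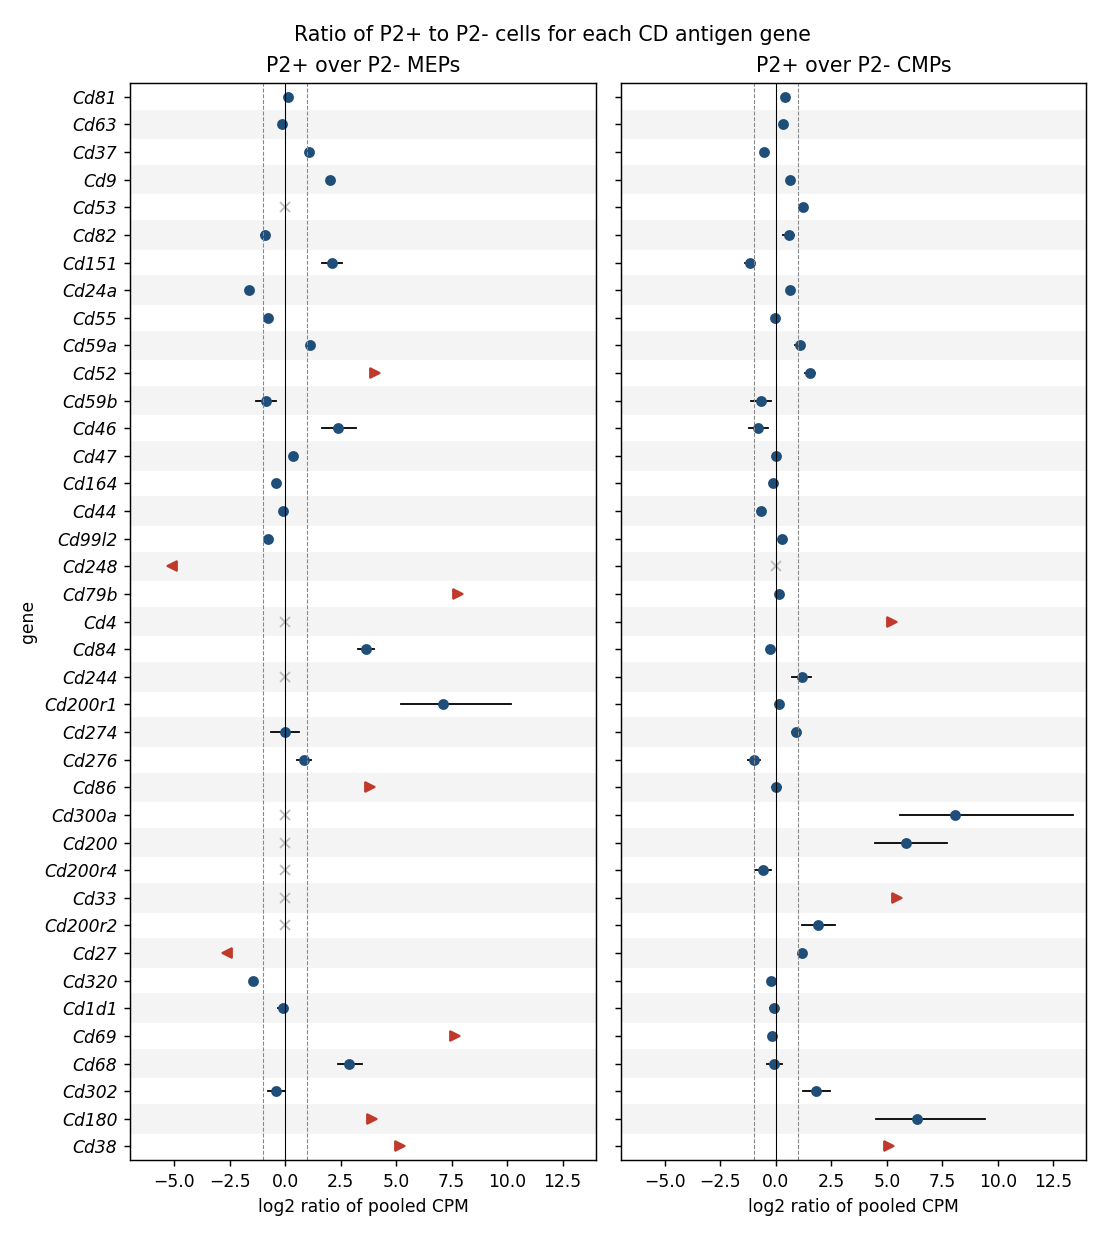
Log2 ratio of pooled CPM of P2+ over P2- cells for each CD gene, in MEPs (left) and CMPs (right). Circles are ratios with exact 95% intervals for counting error, red triangles are bounds where a population had 0 reads, crosses at 0 mark genes with too few reads for a ratio, and dashed lines mark 2-fold. Of the genes with a ratio, 14 lie at or beyond the right dashed line in MEPs and 13 in CMPs.

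The compartments were compared among P2- and among P2+ cells. In P2- cells, 20 of 34 genes with a ratio were at least 2-fold higher in CMPs than in MEPs and 4 were lower, while 22.3% of all genes were higher and 8.75% lower. In P2+ cells, 18 of 38 were higher in CMPs and 0 were lower, while 17.0% of all genes were higher and 9.22% lower. The median log2 ratio of the CD genes was 1.59 in P2- cells and 0.86 in P2+ cells, and that of all genes was 0.12 and 0.02. Among the 18 genes that passed everywhere, 6 were higher and 2 lower in P2- CMPs (13.6% and 6.40% of all such genes), and 3 were higher and 0 lower in P2+ CMPs (8.61% and 7.10%). The 3 were Cd320, Cd63 and Cd24a. Genes that had entered the set through CMPs alone had to be read more often there. These comparisons reuse the populations of the P2+ against P2- comparisons, so the 4 sets of ratios are not independent of each other.

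Of the 39 genes, 7 encode tetraspanins. Cd53 (chr3:106759921-106790149), a leukocyte tetraspanin, had 0 reads in both MEP populations. It reached 21.3 CPM (19.2 to 23.5) in 7 of 27 P2- CMPs and 49.4 CPM (47.1 to 51.7) in 21 of 42 P2+ CMPs. The level in P2+ CMPs was thus 2.32-fold that in P2- CMPs and at least 520-fold that in P2+ MEPs. Cells with a read were thus all CMPs, but single cells overlapped, since 20 of 27 P2- CMPs and 21 of 42 P2+ CMPs had 0 reads like the MEPs. Cd9 (chr6:125460266-125494791), a tetraspanin of platelets and progenitors, stood at 13.3 CPM in P2- MEPs, 54.2 CPM in P2+ MEPs, 31.9 CPM in P2- CMPs and 49.7 CPM in P2+ CMPs. Its level in P2+ MEPs was 4.07-fold that in P2- MEPs (log2 ratio 2.03, 1.87 to 2.19), and 26 of 47 thinned P2+ MEPs held a read against 15 of 56 P2- MEPs. P2+ MEPs and P2+ CMPs differed by 1.09-fold for this gene, in a direction that turned with equal weight for every cell (log2 ratio of CMPs to MEPs -0.12, and 0.19 with equal weight).

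Cd37 (chr7:45233632-45239115), another leukocyte tetraspanin, was lowest in P2- MEPs with 31.1 CPM and highest in P2- CMPs with 121 CPM, between which lay P2+ MEPs with 64.5 CPM and P2+ CMPs with 82.6 CPM. It was 2.07-fold higher in P2+ than in P2- MEPs, and in CMPs the P2+ cells had the lower level (log2 ratio -0.55). Reads of Cd37 were present in 44 of 56 P2- MEPs at a median of 16.4 CPM and in 26 of 27 P2- CMPs at a median of 99.8 CPM over all cells. Cd63, which marks late endosomes and granules, had 37.6 and 33.7 CPM in P2- and P2+ MEPs and 108 and 136 CPM in P2- and P2+ CMPs. It therefore differed between compartments, by 2.87-fold in P2- cells and 4.04-fold in P2+ cells, more than between P2- and P2+ cells. Cd81 was read in nearly all cells, at 271.8 and 292.2 CPM in P2- and P2+ MEPs and at 353.6 and 475 CPM in P2- and P2+ CMPs. Cd82 was highest in P2- MEPs with 21.3 CPM and did not reach 2-fold in either comparison of P2+ with P2- cells, but it did in both without the cell of highest level in each population (log2 ratio -0.90 and then -1.12 in MEPs, 0.58 and then 1.09 in CMPs).

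Cd151, a laminin-binding integrin partner, was 2-fold or more apart in opposite directions in the compartments. It measured 1.73 CPM in P2- MEPs, 7.44 CPM in P2+ MEPs, 18.2 CPM in P2- CMPs and 8.198 CPM in P2+ CMPs. P2+ MEPs were 4.30-fold above P2- MEPs (log2 ratio 2.10, 1.67 to 2.56), whereas P2+ CMPs were 2.22-fold below P2- CMPs (log2 ratio -1.15, -1.38 to -0.92). Reads came from 3 and 12 of the P2- and P2+ MEPs and from 9 and 11 of the P2- and P2+ CMPs, and 71.7% of the reads of P2- MEPs lay in 1 cell. Without the cell of highest level in each population the ratio in MEPs was 3.53 on the log2 scale, and with equal weight for every cell that in CMPs was -0.99, just short of 2-fold.

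The promoters of Cd53, Cd27 and Cd9 are shown because Cd53 and Cd27 were at or near 0 in MEPs and higher in P2+ than in P2- CMPs, while Cd9 was higher in P2+ than in P2- MEPs, and they were chosen after these values were seen. Each line holds the 250 bases before the transcript start in RefSeq on GRCm38.p6, read 5′ to 3′ on the strand of the gene, which is the minus strand for all 3. The windows are chr3:106790150-106790399 for Cd53, chr6:125237028-125237277 for Cd27 and chr6:125494761-125495010 for Cd9, whose start GENCODE places slightly further upstream. Capitals mark AGATAA (bound by GATA factors), CACCC (bound by KLF factors) and GGAAG (a core bound by ETS factors) on either strand, with no overlaps among them.
Cd53: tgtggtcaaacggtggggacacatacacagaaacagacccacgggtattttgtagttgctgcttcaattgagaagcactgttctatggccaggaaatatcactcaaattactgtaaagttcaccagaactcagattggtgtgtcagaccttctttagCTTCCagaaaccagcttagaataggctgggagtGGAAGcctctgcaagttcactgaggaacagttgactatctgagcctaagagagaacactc
Cd27: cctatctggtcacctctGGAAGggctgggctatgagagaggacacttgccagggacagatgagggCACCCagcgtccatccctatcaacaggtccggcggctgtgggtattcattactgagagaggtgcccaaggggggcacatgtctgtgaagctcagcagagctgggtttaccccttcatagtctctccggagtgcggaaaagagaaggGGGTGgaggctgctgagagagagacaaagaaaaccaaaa
Cd9: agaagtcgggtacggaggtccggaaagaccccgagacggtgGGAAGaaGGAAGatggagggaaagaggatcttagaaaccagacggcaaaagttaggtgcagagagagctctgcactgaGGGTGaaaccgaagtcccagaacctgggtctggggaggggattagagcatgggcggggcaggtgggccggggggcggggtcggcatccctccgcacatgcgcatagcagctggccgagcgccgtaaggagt
Cd53 held 2 matches of GGAAG and 0 of CACCC. Cd27 held 1 match of GGAAG and 2 of CACCC, and Cd9 held 2 and 1. AGATAA was in none of these windows, and other forms of the site of GATA factors were not searched for. The table held 37 promoters of 30 of the 39 genes, and of these 67.6% held GGAAG, 51.4% CACCC and 13.5% AGATAA. The shares over all 32851 promoters in the table were 64.1%, 52.0% and 9.99% in the same order. A match describes the letters of the window and not a bound site.

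Of the 6 GPI-anchored and complement-regulating genes, Cd24a (chr10:43578284-43584265) had the most reads in each population. It measured 404 CPM (397 to 411) in P2- MEPs, 129 CPM (125 to 133) in P2+ MEPs, 192 CPM (185 to 198) in P2- CMPs and 296.3 CPM (290.8 to 301.98) in P2+ CMPs. The P2+ MEPs were thus lowest, 3.14-fold below P2- MEPs, while P2+ CMPs were 1.55-fold above P2- CMPs. Cells with a read numbered 52 of 56, 29 of 47, 19 of 27 and 38 of 42 in the same order. The median cell held 371.3 CPM among P2- MEPs and 44.7 CPM among P2+ MEPs, but the ranges overlapped, since single cells ran from 0 to 1307 CPM in the former and from 0 to 966 CPM in the latter. CD24 antibody was among those the study stained fetal liver cells with.

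Cd52, a very short GPI-anchored antigen of leukocytes, was not read in P2- MEPs and stood at 1.62 CPM in P2+ MEPs, where 2 cells held its 51 reads and 72.5% of them lay in 1 cell. It measured 11.7 CPM in P2- CMPs and 34.1 CPM in P2+ CMPs, with reads in 8 and 20 cells. P2+ CMPs were 2.91-fold above P2- CMPs (log2 ratio 1.54, and 2.33 without the cell of highest level in each population). Exons of Crybg2 overlap 14.5% of the exon bases of Cd52. Since strand was ignored in the counting, reads of the 2 genes there cannot be told apart, and such ambiguous reads entered no gene. The like holds for between 10.7% and 14.2% of the exon bases of Cd9, Cd276, Cd274 and Cd46. Cd59a, an inhibitor of the membrane attack complex, was close to 2-fold higher in P2+ cells of both compartments, at 14.6 against 31.9 CPM in MEPs and 14.7 against 30.7 CPM in CMPs. With every cell weighted equally its log2 ratio in CMPs was 0.63, below 2-fold. Its neighbour Cd59b, a paralog at a gap of 4.613 kilobases, lay between 2.06 and 4.20 CPM. Its log2 ratio of P2+ to P2- CMPs turned from -0.68 to 1.11 without the cell of highest level in each population. Reads shared by the 2 paralogs could have been lost. Cd55, the decay-accelerating factor that the study used to characterise these progenitors, measured 31.1 and 18.3 CPM in P2- and P2+ MEPs and 34.8 and 34.0 CPM in P2- and P2+ CMPs. Its reads came from 29, 22, 9 and 19 cells in the same order. Without the cell of highest level in each population, its log2 ratio of P2+ to P2- MEPs passed 2-fold (-0.77 and then -1.11). Cd46, a complement cofactor, was read in 3 to 6 cells of each population at 0.588 to 5.02 CPM.

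**Figure D4:**
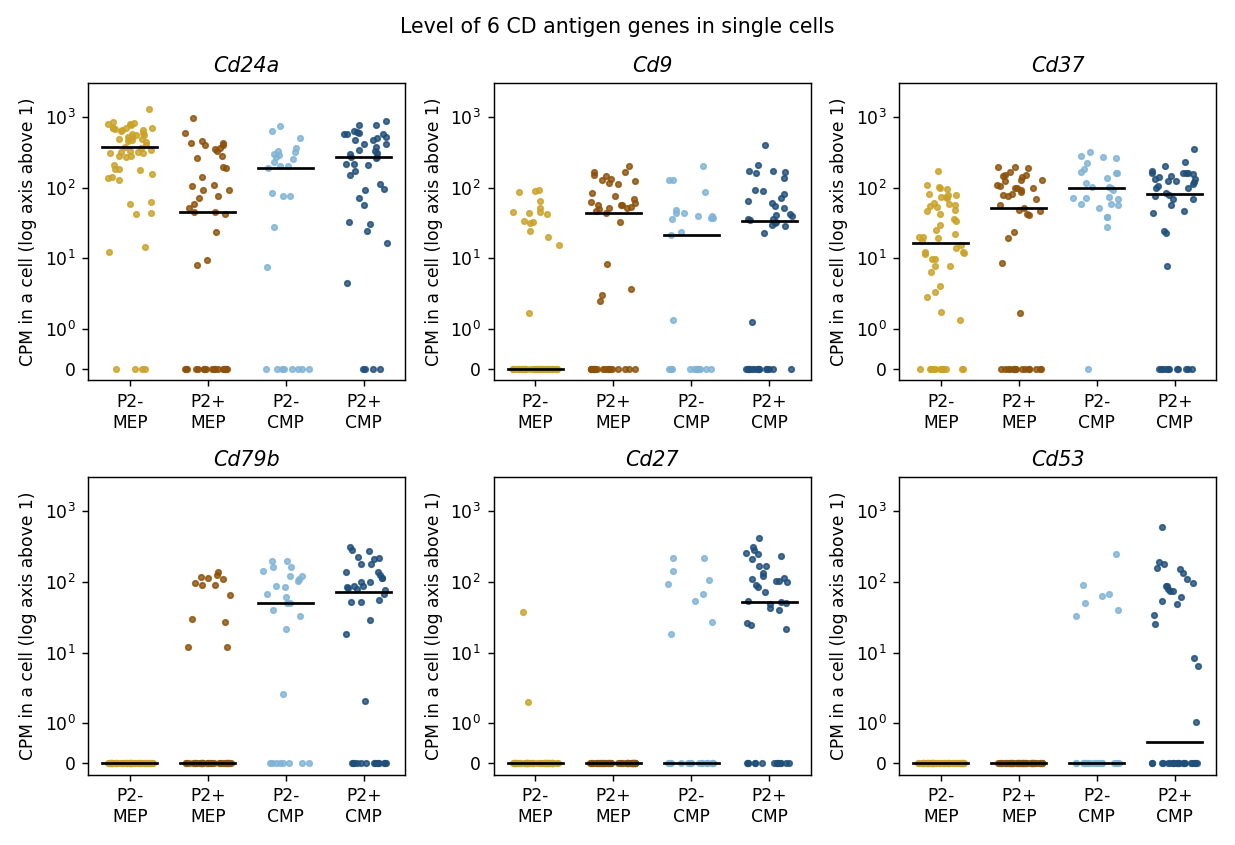
Level of Cd24a, Cd9, Cd37, Cd79b, Cd27 and Cd53 in each cell, in CPM on an axis that is logarithmic above 1, with bars at the medians. Cells with 0 reads lie on the baseline, which holds all P2- MEPs for Cd79b and all MEPs of both kinds for Cd53.

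Of the 5 adhesion and mucin-like genes, 4 differed by less than 2-fold in all 4 comparisons. Cd47 was read in every cell of all populations, at 408, 520, 577 and 582 CPM from P2- MEPs to P2+ CMPs. Cd164 stood at 175 and 130.4 CPM in P2- and P2+ MEPs and at 243.6 and 221.97 CPM in P2- and P2+ CMPs. Cd44, the hyaluronan receptor, stood at 125 and 116 CPM in P2- and P2+ MEPs and at 140 and 86.2 CPM in P2- and P2+ CMPs, and it was read in at least 88.1% of the cells of each population. Cd99l2 lay between 16.9 and 29.4 CPM, and 45.5% of its reads in P2+ MEPs came from 1 cell. Without the cell of highest level in each population, its log2 ratio passed 2-fold between P2+ and P2- MEPs (-0.80 and then -1.43) and between P2+ CMPs and P2+ MEPs (0.73 and then 1.34). The log2 ratios of these genes between P2+ and P2- cells ran from -0.80 to 0.35 in MEPs and from -0.69 to 0.28 in CMPs. The other gene of this group was Cd248 (endosialin), a stromal antigen that was read in 7 P2- MEPs at 3.23 CPM and at 0 reads in the other 3 populations, at least 34.0-fold lower in P2+ MEPs.

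Cd79b (chr11:106311341-106314762), a signalling chain of the B cell receptor, was read in P2+ but not in P2- MEPs. No read was present in 56 P2- MEPs, which allows a level of up to 0.0980 CPM, whereas 13 of 47 P2+ MEPs held 687 reads (21.8 CPM, 20.2 to 23.4), at least 221.98-fold more. The other 34 P2+ MEPs had 0 reads like the P2- MEPs. Levels in CMPs were higher still and near to each other, at 76.4 CPM in 19 of 27 P2- cells and 84.4 CPM in 28 of 42 P2+ cells (log2 ratio 0.14, 0.05 to 0.24). Its partner chain Cd79a had 0 reads in the populations other than P2- CMPs, and Pax5 had 0 reads in all, so that reads of these 2 B cell genes did not accompany Cd79b outside P2- CMPs. Cd4, the co-receptor of helper T cells, was read in 6 of 42 P2+ CMPs at 6.24 CPM and in 0 cells of the other populations. Human CD4 is the reporter on which P2+ cells were sorted, and whether reads of it were counted as mouse Cd4 was not tested. The P2+ MEPs, sorted on the same reporter, had 0 reads of Cd4. Cd3e, Cd5 and Cd8a, which the lineage stain covers together with CD4, had 0 reads in all populations.

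Cd27 (chr6:125232622-125237010) was the TNF receptor of the set and, like Cd53, was read mainly in CMPs. It was read at 0.588 CPM in P2- MEPs, where 17 of 18 reads lay in 1 cell, at 0 in P2+ MEPs, at 37.5 CPM (34.8 to 40.4) in 9 of 27 P2- CMPs and at 84.0 CPM (81.0 to 87.0) in 28 of 42 P2+ CMPs. P2+ CMPs were 2.24-fold above P2- CMPs and at least 884-fold above P2+ MEPs. Both CMP populations still held cells without a read, so the range of single cells began at 0 in each and ended at 218.7 CPM in P2- and 411 CPM in P2+ cells. Cd70, the ligand of CD27, had 0 reads in all populations.

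In the SLAM family, whose receptors bind each other between blood cells, Cd84 was sparse in P2- MEPs and similar elsewhere. Its levels were 2.32, 29.1, 43.1 and 35.9 CPM from P2- MEPs to P2+ CMPs, with reads in 6, 17, 13 and 20 cells. The ratio of P2+ to P2- MEPs was 12.5 (log2 ratio 3.65, 3.30 to 4.02), and it was 5.18 on the log2 scale without the cell of highest level in each population, since 1 P2- MEP held 70.4% of the reads of that population. In CMPs the log2 ratio was -0.26. Cd244 was read in 1 P2- CMP and 5 P2+ CMPs and in 0 MEPs. Its 2.23-fold difference between CMPs (log2 ratio 1.15) was below 2-fold with equal weight for every cell (log2 ratio 0.77) and became 5.08 on the log2 scale without the cell of highest level in each population.

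Of the 9 immunoglobulin-like receptors and ligands, a group that holds inhibitory receptors and also the activating paralogs Cd200r2 and Cd200r4, 7 were at least 2-fold higher in CMPs than in MEPs among P2- cells, where Cd33 and Cd300a had too few reads for a ratio, and 8 among P2+ cells, where Cd276 was the exception (log2 ratio -0.17). The shares over all genes were 22.3% and 17.0%, and 6 of these 9 genes (Cd33, Cd200, Cd300a, Cd86, Cd200r4 and Cd200r2) had entered the set through CMPs alone. Cd200r1, the inhibitory receptor for CD200, had 2 reads in P2- MEPs (0.0653 CPM), 8.99 CPM in P2+ MEPs, 30.3 CPM in P2- CMPs and 33.1 CPM in P2+ CMPs. The P2+ MEPs were 138-fold above P2- MEPs, with an interval from 5.24 to 10.16 on the log2 scale, and 6 P2+ MEPs held the reads. Without the cell of highest level in each population the log2 ratio was 6.08 in place of 7.10. Cd274 (PD-L1) had 1.37 and 1.36 CPM in P2- and P2+ MEPs and 19.1 and 35.3 CPM in P2- and P2+ CMPs. Of its 42 reads in P2- MEPs 97.6% lay in 1 cell, and without the cell of highest level in each population the log2 ratio of P2+ to P2- MEPs was 3.86 in place of -0.01 and that in CMPs 1.04 in place of 0.89. Cd86, a ligand of CD28 and CTLA-4, was not read in P2- MEPs and was read in 2 P2+ MEPs at 1.36 CPM, where 97.7% of its 43 reads lay in 1 cell, without which no ratio between MEPs could be formed. It measured 14.1 CPM in 7 P2- CMPs and 14.4 CPM in 10 P2+ CMPs.

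Cd300a, an inhibitory receptor of myeloid cells, was at 1 read in each of P2- MEPs, P2+ MEPs and P2- CMPs and at 534 reads in 8 P2+ CMPs (14.7 CPM). The log2 ratio of P2+ to P2- CMPs was 8.07 with an interval from 5.59 to 13.4, and it was 5.98 without the cell of highest level in each population. Cd200, a ligand that engages CD200R1, had 0 reads in MEPs, 4 reads in 1 P2- CMP and 458 reads in 6 P2+ CMPs (12.6 CPM), a ratio of 57.8. Cd33, a sialic acid-binding receptor of myeloid cells, was read in 5 P2+ CMPs at 7.18 CPM and at 0 in the other populations. Cd200r4 was read in 7 P2- CMPs and 14 P2+ CMPs at 6.44 and 4.32 CPM. Of its reads in P2- CMPs 75.4% lay in 1 cell, and without the cell of highest level in each population its log2 ratio turned from -0.58 to 1.09. Cd200r2 stood at 0.982 CPM in P2- CMPs and 3.60 CPM in P2+ CMPs, and since 80.9% of its reads in P2+ CMPs came from 1 cell, its log2 ratio of 1.88 became -0.05 without the cell of highest level in each population. Cd200r1, Cd200r4 and Cd200r2 lie next to one another on chromosome 16 with gaps of 16.754 and 27.946 kilobases, and reads shared by such paralogs could have been lost. Cd276 lay between 4.35 and 13.6 CPM and stood near 2-fold in both comparisons of P2+ with P2- cells (log2 ratio 0.82 in MEPs and -0.99 in CMPs).

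The endocytic, lectin and antigen-presenting genes did not share a pattern. Cd320, the receptor for transcobalamin-bound vitamin B12, was lowest in P2+ MEPs with 24.99 CPM, 2.71-fold below the 67.8 CPM of P2- MEPs, and stood at 72.1 and 60.9 CPM in P2- and P2+ CMPs. Cells with a read numbered 47 among 56 P2- MEPs but 17 among 47 P2+ MEPs, with 18 and 31 in P2- and P2+ CMPs. Cd69, a lectin that holds S1P receptor 1 inside cells, was not read in P2- MEPs and was read in 6 P2+ MEPs at 19.6 CPM, at least 199.7-fold more. It measured 32.7 CPM in 9 P2- CMPs and 29.1 CPM in 10 P2+ CMPs. Cd68, a late endosomal glycoprotein, was read in 4 to 7 cells of each population at 1.18 to 8.74 CPM, with P2+ MEPs highest and 7.43-fold above P2- MEPs. Cd1d1, which presents lipids, lay between 14.2 and 27.2 CPM. Cd180, a toll-like receptor homolog, was not read in P2- MEPs and had 46 reads in P2+ MEPs (1.46 CPM), of which 95.7% lay in 1 cell. It was read in 8 P2+ CMPs at 8.97 CPM and at 2 reads in P2- CMPs (log2 ratio 6.36, 4.50 to 9.41). That ratio was 6.99 without the cell of highest level in each population and 5.72 with equal weight for every cell. Cd302 was read in 1 to 10 cells of each population at 1.47 to 5.09 CPM, and in P2- CMPs its reads lay in that 1 cell. Its log2 ratio in CMPs was 1.79, and 4.16 without the cell of highest level in each population, and that in MEPs was -0.40, which became -1.26 without those cells and 0.26 with equal weight for every cell. The ectoenzyme Cd38, which degrades NAD, was read in 5 P2+ MEPs at 3.58 CPM and 4 P2+ CMPs at 5.67 CPM, with 0 reads in both P2- populations. It was the gene of the set with 0 reads in both P2- and reads in both P2+ populations.

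Cells that carried the sparse genes overlapped in part. Of the 6 genes that passed the detection rule in P2+ CMPs alone, a read of at least 1 was present in 25 of 42 P2+ CMPs and reads of at least 2 in 9 cells, with at most 3 in a cell. Cd27 and Cd53 were read together in 17 P2+ CMPs, of 28 with Cd27 and 21 with Cd53. Of the 6 P2+ CMPs with Cd200, 4 also held reads of Cd200r1, which 20 P2+ CMPs carried. In P2+ MEPs, Cd9 and Cd24a were read in 26 and 29 thinned cells and in 11 together, with a Spearman's rho of -0.53 over 47 cells, the lowest of 91 pairs of genes read in enough of these cells. In the other populations the rho of this pair was -0.08 (P2- MEPs), 0.37 (P2- CMPs) and -0.14 (P2+ CMPs). Counts of cells in this paragraph are of raw reads where thinning is not named, and the cells shared a pool.

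Among genes read in at least 25% of the thinned cells of a population, correlations with the summed erythroid markers were lowest for Cd24a (rho -0.62) and Cd27 (rho -0.52) over 27 P2- CMPs and for Cd27 over 42 P2+ CMPs (rho -0.49). The highest over P2- CMPs was that of Cd55 (rho 0.40). For Cd24a the rho was 0.15 in P2- MEPs, 0.23 in P2+ MEPs and -0.14 in P2+ CMPs. Over the same P2+ CMPs, Cd27 had a rho of 0.39 and Cd9 of -0.50 with the summed granulocyte and monocyte markers. Of those 6 markers, 2 were read in at least 10% of P2+ CMPs. In P2- MEPs no gene reached a rho beyond -0.20 or 0.26 with the erythroid sum. The values are descriptions over cells that share library preparation and depth.

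Genes outside the set were taken from lists chosen with earlier results of these data known. A listed gene could meet the detection rule in any population, so one that met it where it was high had to differ. The counts below are a description only. Of 24 tetraspanins with other symbols, 16 met the detection rule, of which 4 were at least 2-fold higher and 3 lower in P2+ MEPs than in P2- MEPs, and 1 higher and 3 lower in P2+ than in P2- CMPs. The shares over all genes were 14.2% higher and 6.44% lower in MEPs and 9.00% higher and 8.65% lower in CMPs. Tspan8 and Tspan33 were lower by this fold in P2+ cells of both compartments. Tspan33, which is known from erythroid cells, had a log2 ratio of -2.18 in MEPs and -1.94 in CMPs. Of 77 CD antigens that carry other gene symbols, 53 met the detection rule. The list held Ptprc, Pecam1, Eng, Itgb1 and Tek, which the study picked as candidate markers from the reads of these cells. It also held Itga2b (CD41) and Slamf1 (CD150), on whose proteins the cells were sorted. In MEPs, where 14.2% of all genes were higher and 6.44% lower, 29 of 48 with a ratio were higher in P2+ cells and 4 were lower, with a median log2 ratio of 1.53. In CMPs, where these shares were 9.00% and 8.65%, 7 of 53 were higher and 8 were lower, with a median of 0.08.

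Ligands and partners of the CD genes gave 6 of 13 higher and 1 lower in P2+ MEPs, and 2 of 14 higher and 2 lower in P2+ CMPs, beside shares over all genes of 14.2% and 6.44% in MEPs and 9.00% and 8.65% in CMPs. Sirpa, the receptor for CD47, stood at 0.915 CPM in P2- MEPs, 12.6 CPM in P2+ MEPs, 56.4 CPM in P2- CMPs and 66.7 CPM in P2+ CMPs, so that the receptor varied across populations in which Cd47 itself stayed between 408 and 582 CPM. Thbs1, a secreted ligand of CD47, was not read in P2- MEPs and stood at 109 CPM in P2+ MEPs, against 0.764 CPM in P2- CMPs and 10.3 CPM in P2+ CMPs. Igsf8, an immunoglobulin partner of CD9 and CD81, was read at 31.9 to 71.8 CPM, while Ptgfrn, the other such partner, had 0 reads in all populations. S1pr1, the receptor that CD69 holds inside cells, measured 2.84, 20.6, 28.5 and 29.6 CPM from P2- MEPs to P2+ CMPs. Piga, needed for the GPI anchor, was highest in P2- MEPs with 58.9 CPM and lowest in P2+ CMPs with 10.4 CPM.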

How the data were processed

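Per the labels and the study's methods, reads of single cells were trimmed with Trimmomatic 0.36, aligned to GRCm38 with STAR 2.4.2a and counted per gene over exons with HTSeq 0.6.1p1, without regard to strand. The authors deposited raw read counts, the percent of unmapped reads of each cell and a gene annotation. Of uniquely mapped reads, 25.6% were ambiguous and 7.40% fell on no feature, and neither entered a gene. The labels name CMPs low and high, which the series design gives as P2- and P2+, and 1 P2- CMP with a conflicting subtype label was kept. Of 175 cells, 172 had at least 250000 reads, at most 25% unmapped and at most 15% spike-in reads, and 3 were left out. No 2 cells had identical counts, 0 names were shared between cells, no plate was labelled, and no doublet caller was run on single cells sorted to wells.

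Counts were summed per population and divided by mouse reads (Python 3.11.15, pandas 2.3.3, scipy 1.17.1) to give CPM with exact Poisson intervals, and ratios had exact conditional binomial intervals. A population at 0 was set to 3 reads for a bound, and no ratio was given where both were at or under 3. Numbers of cells with a read were taken from raw reads, and also after thinning each cell to 100000 reads where so named. Exon lengths and positions came from GENCODE, matched by gene ID, and promoters from RefSeq. Scripts were tested on simulated data. Named genes were all members, with full values for those of at least 10 CPM and 2-fold between P2+ and P2- cells, the 5 highest per kilobase, those nearest the detection threshold, and those whose proteins the study stained. Alternatives were DESeq2 1.42.0 size factors, equal weight per cell, every deposited cell, leaving out the highest cell, another denominator, folds of 1.5 and 3, and other detection and thinning settings. Members, families, lists and named pairs were chosen with earlier results of these data known.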

Additional observations from a re-analysis of the deposited data

Results flagged for a closer look

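Cd151 and Cd27 were at least 2-fold apart between P2+ and P2- cells in opposite directions in the 2 compartments. The log2 ratio of Cd151 was 2.10 in MEPs and -1.15 in CMPs. That of Cd27 was -2.63 as a bound in MEPs, where 18 reads in 2 P2- cells stood against 0 reads, and 1.16 in CMPs. Of the 18 reads 17 lay in 1 cell, without which no ratio of Cd27 in MEPs could be formed. With equal weight for every cell the log2 ratio of Cd151 in CMPs was -0.99, short of 2-fold. With 1 pool per population, the difference between the compartments was not tested.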

How the results depend on the processing

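Numbers of CD genes past 2-fold stayed within 1.5 times the reported ones under DESeq2 size factors, every deposited cell, a denominator without mitochondrial genes and Rn18s-rs5, and a minimum of 10 reads. The genes lower in P2+ MEPs numbered 8 in place of 4 both without the cell of highest level for each gene and at a fold of 1.5. Those higher in P2+ CMPs numbered 8 in place of 13 at a fold of 3. The 1 gene lower in P2+ CMPs became 0 with equal weight for every cell, 2 without the P2- CMP of conflicting label, 5 at a fold of 1.5 and 0 at a fold of 3. Those lower in P2- CMPs than in P2- MEPs numbered 2 in place of 4 at a fold of 3. At a detection rule of 25% of cells 25 genes would have been members. Of 141 ratios, 136 could still be formed without the highest cell, of which 38 moved by over 1.5 times, and among ratios past 2-fold this reversed that of Cd200r2 in CMPs, from 1.88 to -0.0452. A detection rule of 5% of cells gave 41 members. The cause of the other changes was not tested. No paired analysis was possible because the labels carry no replicate numbers that populations share. With 1 pool per population the spread between embryos is unknown, and a gene read in a few cells rests on those cells.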

Other observations

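CD antigens that carry other gene symbols and were read in the same cells included Ptprc (CD45), the common leukocyte phosphatase, at 2.61 and 23.3 CPM in P2- and P2+ MEPs and 98.7 and 114 CPM in P2- and P2+ CMPs. Tfrc (CD71), the transferrin receptor, ran the other way, with 259.9 and 95.1 CPM in the MEPs and 49.3 and 23.1 CPM in the CMPs. Flt3 (CD135), a receptor of early progenitors, had at most 1 read in the MEP populations, and it measured 10.7 CPM in 7 P2- CMPs and 44.8 CPM in 14 P2+ CMPs. These 3 genes were chosen after their values were seen.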
